A study of Mus musculus with 14 samples.

Results

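The genes described here are 42 genes that cells use to pass from G2 through mitosis, from the cyclins that start it to the proteins that cut the daughter cells apart. They were chosen by name, and each was read from the brightest probe set annotated to that symbol alone. 41 of the 42 had such a probe set, among 19752 genes in all, and Ccnb1 did not and is not analysed here. All 41 passed the filter on dim genes, which left 11851 genes tested. The RNA came from splenic CD4+ T cells of 6-week-old male C57BL/6 mice, activated for 48 h with CD3/28 beads and then cultured for 2 h or 8 h with interferon alpha (IFNa) at 100 U/ml and a JAK inhibitor at its IC80. The 7 inhibitors carry target labels and code names, and in the titles JAK3 is the label of IFN.6226 and IFN.6228, JAK2 of IFN.3885, TYK2 of IFN.2485, PAN of IFN.6222, JAK1/2 of IFN.6221 and JAK1 of IFN.3404, where IFN is the interferon given to all. Each is called below by its target label, and the JAK3 inhibitors by their titles. There was 1 array for each inhibitor and time, 14 in all, so 7 inhibitors at each time stand in for replicates. Every group had the beads, IFNa and an inhibitor, and arrays without inhibitor or without IFNa were not analysed here. A change from 2 h to 8 h therefore holds the effects of IFNa, of the inhibitor and of further culture, which cannot be told apart. Nothing in the labels says that the arrays came from separate cultures or animals.

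Transcripts of mitotic genes are scarce in resting T cells and build up late in each cycle once a T cell has been activated. In G1 a repressor complex called DREAM holds many of these genes down, and in S phase and G2 its core, named MuvB, joins B-MYB and then FOXM1 and turns the same promoters on. MuvB contacts a short promoter element called the CHR, and the factor NF-Y binds CCAAT boxes placed near it. During and after mitosis the anaphase-promoting complex, APC/C, marks many of the encoded proteins for destruction.

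The 6 members shown here were selected because the 100 bases before their first listed start held both elements. Of these, 3 (Cdc20, Espl1 and Kif11) rose from 2 h to 8 h, and the other 3 (Top2a, Ube2c and Cdk1) did not pass the test. Prc1, which also rose, held both elements only before another listed start and is not shown. The promoters of the 6 are printed below. Each is the run of 100 bases before the gene's start on its own strand, from RefSeq on GRCm38.p6, and capitals mark the CHR (TTTGAA or TTCGAA on either strand, so TTCAAA also) and the CCAAT box (CCAAT, or ATTGG on the other strand).
Cdc20, chr4:118437344-118437443, minus strand: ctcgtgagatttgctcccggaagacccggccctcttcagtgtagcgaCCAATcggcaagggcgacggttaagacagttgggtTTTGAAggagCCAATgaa
Espl1, chr15:102296193-102296292, plus strand: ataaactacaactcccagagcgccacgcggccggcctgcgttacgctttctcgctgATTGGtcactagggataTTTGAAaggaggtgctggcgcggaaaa
Kif11, chr19:37376282-37376381, plus strand: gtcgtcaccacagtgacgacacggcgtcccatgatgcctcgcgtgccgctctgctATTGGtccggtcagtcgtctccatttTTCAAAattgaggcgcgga
Top2a, chr11:99024190-99024289, minus strand: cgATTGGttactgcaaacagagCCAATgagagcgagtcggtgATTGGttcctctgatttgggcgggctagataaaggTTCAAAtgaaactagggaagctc
Ube2c, chr2:164769829-164769928, plus strand: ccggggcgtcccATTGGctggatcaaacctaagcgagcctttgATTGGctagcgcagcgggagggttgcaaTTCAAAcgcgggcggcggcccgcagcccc
Cdk1, chr10:69352913-69353012, minus strand: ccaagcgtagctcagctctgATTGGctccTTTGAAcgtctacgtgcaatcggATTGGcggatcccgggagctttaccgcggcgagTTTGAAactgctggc
By that selection each of the 6 runs held a CHR and at least 1 CCAAT box, and that of Cdk1 held 2 CHR matches and 2 CCAAT boxes. The RefSeq promoter table had an entry for 35 of the 42 members. In the 250 bases before the start, 13 of the 35 held a CHR (37.1%, against 19.6% of the 27025 genes of the table), 26 held a CCAAT box (74.3% against 37.5%) and 12 held both (34.3% against 7%). A longer window of 300 bases, which runs 50 bases past the start, was not in the plan. In it 27 members held a CHR (77.1%, against 21.7% of all genes) and 23 held both elements (65.7% against 8.61%). The CHR share was 14.6% in 41 genes of G1 and S phase over either window. In 55 further mitosis genes outside the 42 it was 43.6% and, in the longer window, 61.8%, where 49.1% held both elements. In the 250 bases before the start, a CHR stood in 10 of 26 members that rose (38.5%) and in 3 of 8 that did not pass (37.5%). Both elements stood there in 9 of 26 (34.6%) and 3 of 8 (37.5%). In the longer window, a CHR stood in 21 of 26 members that rose (80.8%) and in 6 of 8 that did not pass (75%). Both elements stood in 18 of 26 (69.2%) and 5 of 8 (62.5%). CCAAT boxes spaced 30 to 35 bases apart, a measure chosen after the sequences were seen, stood before 7 of the 35 members (20%) and 1.68% of all genes, and before 3 of 26 members that rose (11.5%) and 3 of 8 that did not pass (37.5%). A match is a description of the letters and not of binding.

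Most of the mitotic genes were higher at 8 h than at 2 h. By limma, in a fit of inhibitor and time with Benjamini-Hochberg adjustment over 11851 genes and a threshold of 0.05, 32 of 41 members were higher at 8 h and 0 were lower, against 21.3% of all genes higher and 28% lower. The median member change was 0.30 on the log2 scale, against 0.02 for all genes. In 25 members the 8 h array was above the 2 h array with all 7 inhibitors, as in 16% of all genes, and in 0 members it was below with all 7, as in 22.2% of all genes. In 16 members all 8 h arrays lay above all 2 h arrays, as in 8.87% of all genes. Without JAK1 a further 5 members passed, which were Anln, Aurkb, Top2a, Ttk and Ube2c. The share of all genes called without JAK1 is not given here, so this gain cannot be set against it. In a bulk sample more cells in G2 or mitosis and more of these transcripts per cell cannot be told apart. The spread behind these p-values is how unevenly the 7 inhibitors changed, plus noise, since no array was repeated. All levels below are log2 intensities of a gene's probe set, and changes are 8 h minus 2 h with their standard error (SE).

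**Figure D1:**
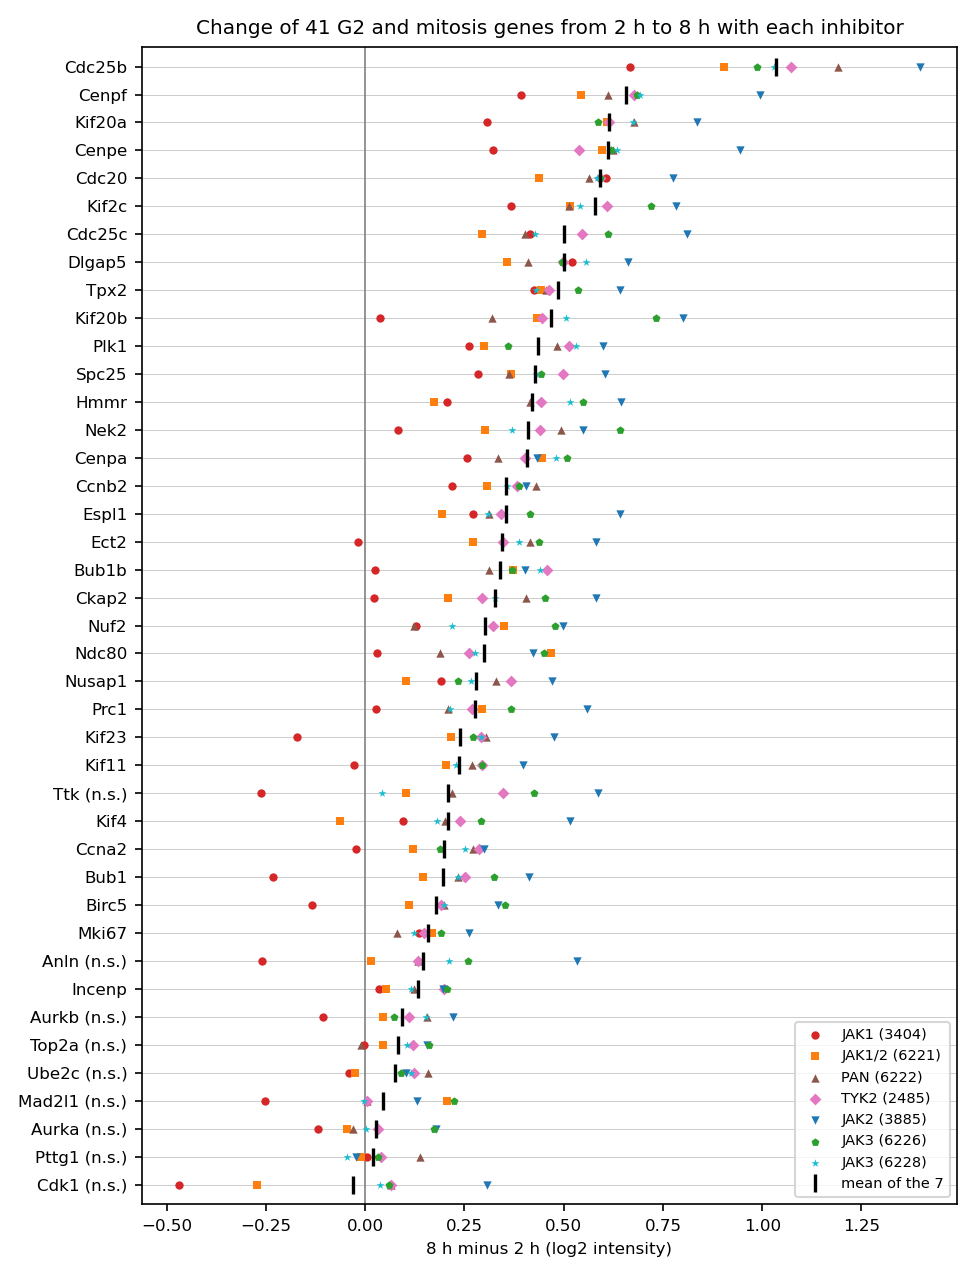
Change of each of the 41 genes from 2 h to 8 h (log2 intensity, horizontal axis), with 1 point per inhibitor and a bar at the mean of the 7; n.s. marks the 9 genes that did not pass the test. Most points lie right of 0, Cdc25b lies farthest right at a mean of 1.04, and the JAK1 points are often the leftmost.

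Genes of mitotic entry held the largest rise. Cdc25b encodes a phosphatase that strips the inhibitory phosphates from CDK1. At 2 h it measured 10.44 with JAK1, 10.33 with JAK1/2, 10.17 with PAN, 10.09 with TYK2, 10.04 with JAK2, 10.22 with IFN.6226 and 10.18 with IFN.6228. At 8 h, in the same order, it measured 11.11, 11.24, 11.36, 11.16, 11.44, 11.21 and 11.21. The times did not overlap, and the JAK2 array was the lowest at 2 h and the highest at 8 h. The change was 1.04 (SE 0.07, 2.05-fold, limma adjusted p = 3.437e-08), from 0.67 with JAK1 to 1.40 with JAK2. Ccnb2, a B-type cyclin that activates CDK1, measured 12.37 with JAK1, 12.32 with JAK1/2, 12.24 with PAN, 12.22 with TYK2, 12.27 with JAK2, 12.17 with IFN.6226 and 12.31 with IFN.6228 at 2 h. Its 8 h values were 12.59, 12.63, 12.67, 12.60, 12.67, 12.56 and 12.67. All 8 h arrays of Ccnb2 again lay above all 2 h arrays, and they spread less than the 2 h arrays did (SD 0.04 and 0.07, n = 7 each). Its change was 0.36 (SE 0.03, limma adjusted p = 1.024e-06).

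Cdc25c, the second CDK1 phosphatase of the set, rose by 0.50 (SE 0.07), and its 2 h values of 7.66 to 8.05 (median 7.91) lay below its 8 h values of 8.20 to 8.52 (median 8.45). Plk1, a kinase that drives entry and spindle assembly, rose by 0.44 (SE 0.05), from 11.19 to 11.35 at 2 h (median 11.25) to 11.61 to 11.83 at 8 h (median 11.72). Neither gene overlapped between the times. Nek2, a kinase that splits the centrosomes, rose by 0.41 (SE 0.07) and Ccna2, the A-type cyclin, by 0.20 (SE 0.04), and in both the times overlapped. The 8 h value of Ccna2 with JAK1 (12.20) was under its own 2 h value (12.22), and in the other 6 inhibitors the 8 h value was the higher.

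Cdk1, the kinase that the cyclins and CDC25 phosphatases activate, did not pass the test. Its 2 h values were 11.37 with JAK1, 11.35 with JAK1/2, 11.22 with PAN, 11.20 with TYK2, 11.09 with JAK2, 11.16 with IFN.6226 and 11.20 with IFN.6228. At 8 h they were 10.90, 11.08, 11.28, 11.26, 11.40, 11.22 and 11.24. The inhibitors labelled JAK1 and JAK1/2 had the highest values at 2 h and the lowest at 8 h, and the JAK2 array went from lowest to highest. The mean change was -0.03 (SE 0.07, limma adjusted p = 0.755), between -0.47 with JAK1 and 0.31 with JAK2. The mean was 0.04 without JAK1 and 0.01 without JAK1/2 or after cyclic loess. Aurka, the centrosomal Aurora kinase, changed by 0.03 (SE 0.05, limma adjusted p = 0.66), with 4 inhibitors higher and 3 lower. Of the 8 entry genes measured, 6 rose and 2 did not pass, with a median change of 0.38.

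The kinetochore, which ties chromosomes to spindle microtubules, rose as a whole: 6 of 6 members passed, with a median of 0.42. Cenpa, the histone H3 variant that marks the centromere, measured 10.56 with JAK1, 10.61 with JAK1/2, 10.72 with PAN, 10.77 with TYK2, 10.62 with JAK2, 10.72 with IFN.6226 and 10.78 with IFN.6228 at 2 h. Its 8 h values were 10.81, 11.06, 11.05, 11.17, 11.05, 11.23 and 11.26. The JAK1 array was the lowest at either time, yet every 8 h value was above every 2 h value, and the change was 0.41 (SE 0.04, limma adjusted p = 3.259e-06). Cenpf, a large protein of the outer kinetochore, rose by 0.66 (SE 0.07, limma adjusted p = 1.569e-06), from 8.80 to 9.17 at 2 h (median 9.09) to 9.43 to 9.86 at 8 h (median 9.72). Its lowest 2 h array was that of JAK2 and its lowest 8 h array that of JAK1, with no overlap of the times. Cenpe, a kinesin that carries chromosomes to the spindle equator, rose by 0.61 (SE 0.06), from a 2 h range of 9.45 to 9.80 (median 9.68) to 10.02 to 10.43 (median 10.30). Ndc80, Nuf2 and Spc25 are subunits of the complex that grips the microtubule. Spc25 rose by 0.43 (SE 0.06) with no overlap, while Nuf2 (0.30, SE 0.06) and Ndc80 (0.30, SE 0.06) rose with overlapping times, the JAK1 value at 8 h being the lowest 8 h array of each.

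Genes of the spindle checkpoint, which delays anaphase until kinetochores are attached, had a median change of 0.20, and 2 of 4 passed and were higher. Mad2l1, which encodes the diffusible inhibitor MAD2, measured 11.45 with JAK1, 11.34 with JAK1/2, 11.45 with PAN, 11.46 with TYK2, 11.37 with JAK2, 11.32 with IFN.6226 and 11.50 with IFN.6228 at 2 h. At 8 h the values were 11.20, 11.55, 11.45, 11.46, 11.50, 11.54 and 11.50. The JAK1 array at 8 h was under all 13 other arrays, and those of PAN, TYK2 and IFN.6228 scarcely moved. The change of Mad2l1 was 0.04 (SE 0.05, limma adjusted p = 0.508). Bub1b, which encodes the checkpoint protein BUBR1, rose by 0.34 (SE 0.06), from 9.87 to 10.12 at 2 h (median 10.03) to 9.90 to 10.56 at 8 h (median 10.40). Only the JAK1 array of 8 h fell inside its 2 h range. Bub1, the kinase that recruits BUBR1, rose by 0.20 (SE 0.06, limma adjusted p = 0.0205) although its lowest value of all 14 arrays was the 8 h value of JAK1 (10.57). Bub1 lost the call without JAK2, IFN.6226, IFN.6228 or TYK2 (the highest adjusted p over all settings was 0.0812). Ttk, the kinase MPS1 that starts checkpoint signalling, changed by 0.21 (SE 0.09, limma adjusted p = 0.0564), with 6 inhibitors higher and JAK1 lower.

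Among the genes of anaphase, Cdc20 and Espl1 rose and Ube2c and Pttg1 did not pass, with a median of 0.21 over the 4. Cdc20, which activates APC/C, measured 9.84 to 10.03 at 2 h (median 9.96) and 10.27 to 10.62 at 8 h (median 10.58), with no overlap. Its change was 0.59 (SE 0.05, 1.51-fold, limma adjusted p = 2.464e-07), and here the lowest 8 h array was that of JAK1/2 and not of JAK1. Espl1, which encodes separase, the protease that opens cohesin rings, rose by 0.35 (SE 0.06), from 8.56 to 8.73 at 2 h to 8.92 to 9.20 at 8 h. Ube2c, the ubiquitin-conjugating enzyme of APC/C, measured 11.45 with JAK1, 11.45 with JAK1/2, 11.38 with PAN, 11.36 with TYK2, 11.44 with JAK2, 11.33 with IFN.6226 and 11.36 with IFN.6228 at 2 h. At 8 h it measured 11.41, 11.42, 11.54, 11.48, 11.54, 11.42 and 11.47. These ranges overlapped, 5 inhibitors were higher and 2 lower, and the change was 0.07 (SE 0.04, limma adjusted p = 0.136). Pttg1, which encodes securin, the inhibitor of separase, changed by 0.02 (SE 0.05, limma adjusted p = 0.774), with 4 inhibitors higher and 3 lower.

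The chromosomal passenger complex corrects faulty attachments and later moves to the spindle midzone. Its kinase gene Aurkb measured 11.48 with JAK1, 11.52 with JAK1/2, 11.40 with PAN, 11.46 with TYK2, 11.47 with JAK2, 11.47 with IFN.6226 and 11.46 with IFN.6228 at 2 h. The 8 h values were 11.38, 11.56, 11.55, 11.57, 11.69, 11.54 and 11.61. With 6 inhibitors the 8 h array was the higher, and with JAK1 it was the lower and the lowest of all 14. The change of 0.09 (SE 0.04, limma adjusted p = 0.0882) did not pass. Its partners Birc5 (survivin, 0.18, SE 0.06) and Incenp (0.13, SE 0.05) passed with adjusted p of 0.0242 and 0.0333 by limma, and both lost the call without IFN.6226, IFN.6228, PAN or TYK2 (the highest adjusted p over all settings were 0.121 and 0.225).

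All 8 genes of spindle motors and microtubule-associated proteins rose, with a median of 0.37. Kif11, which encodes the motor EG5 that pushes the spindle poles apart, measured 11.76 with JAK1, 11.64 with JAK1/2, 11.63 with PAN, 11.53 with TYK2, 11.49 with JAK2, 11.53 with IFN.6226 and 11.64 with IFN.6228 at 2 h. The 8 h values were 11.73, 11.84, 11.90, 11.82, 11.89, 11.82 and 11.87. Under JAK1 the values at both times were nearly equal, so the times overlapped, and the change was 0.24 (SE 0.05, limma adjusted p = 7.049e-04). Kif2c, a kinesin that shortens microtubules at kinetochores, rose by 0.58 (SE 0.06, limma adjusted p = 1.441e-06), from 9.21 to 9.56 at 2 h (median 9.42) to 9.58 to 10.10 at 8 h (median 10.03). The times of Kif2c were separate by a narrow margin, since its JAK1 array of 8 h sat just above the highest 2 h array. Dlgap5 (0.50, SE 0.05), Tpx2 (0.49, SE 0.05) and Hmmr (0.42, SE 0.06), whose proteins build and bundle spindle microtubules, also rose with no overlap. Nusap1 (0.28, SE 0.05), Ckap2 (0.33, SE 0.07) and the chromokinesin Kif4 (0.21, SE 0.06) rose with overlap. Nusap1 was the member whose 8 h JAK1 array, at 11.67, was the highest of its time.

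Of the 6 genes of the central spindle and cytokinesis, 5 rose, with a median of 0.31. Kif23, the kinesin of the centralspindlin complex, measured 10.82 with JAK1, 10.62 with JAK1/2, 10.62 with PAN, 10.54 with TYK2, 10.43 with JAK2, 10.52 with IFN.6226 and 10.57 with IFN.6228 at 2 h. Its 8 h values were 10.65, 10.87, 10.92, 10.83, 10.90, 10.79 and 10.86. JAK1 had the highest 2 h value and the lowest 8 h value, while the other 6 were higher at 8 h, and the change was 0.24 (SE 0.06, limma adjusted p = 0.00568). Kif20a, a kinesin that brings the passenger complex to the midzone, rose by 0.61 (SE 0.06, limma adjusted p = 6.843e-07), from 10.05 to 10.36 at 2 h (median 10.24) to 10.67 to 10.94 at 8 h (median 10.89), with no overlap. Kif20b rose by 0.47 (SE 0.08), Ect2, which activates RhoA at the cleavage site, by 0.35 (SE 0.06), and Prc1, which bundles midzone microtubules, by 0.28 (SE 0.06). Anln, which encodes the ring scaffold anillin, changed by 0.15 (SE 0.08, limma adjusted p = 0.125).

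Mki67 and Top2a are genes of chromosome structure that also serve as labels of cycling cells. Mki67 measured 12.23 with JAK1, 12.21 with JAK1/2, 12.27 with PAN, 12.20 with TYK2, 12.16 with JAK2, 12.19 with IFN.6226 and 12.30 with IFN.6228 at 2 h. At 8 h the values were 12.37, 12.38, 12.35, 12.35, 12.42, 12.38 and 12.42. The times did not overlap although the change was only 0.16 (SE 0.03, limma adjusted p = 0.0011), and the arrays of each time lay close together. Top2a, the topoisomerase that untangles sister chromatids, changed by 0.08 (SE 0.04, limma adjusted p = 0.0882), from 11.45 to 11.69 at 2 h (median 11.60) to 11.45 to 11.80 at 8 h (median 11.72).

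**Figure D2:**
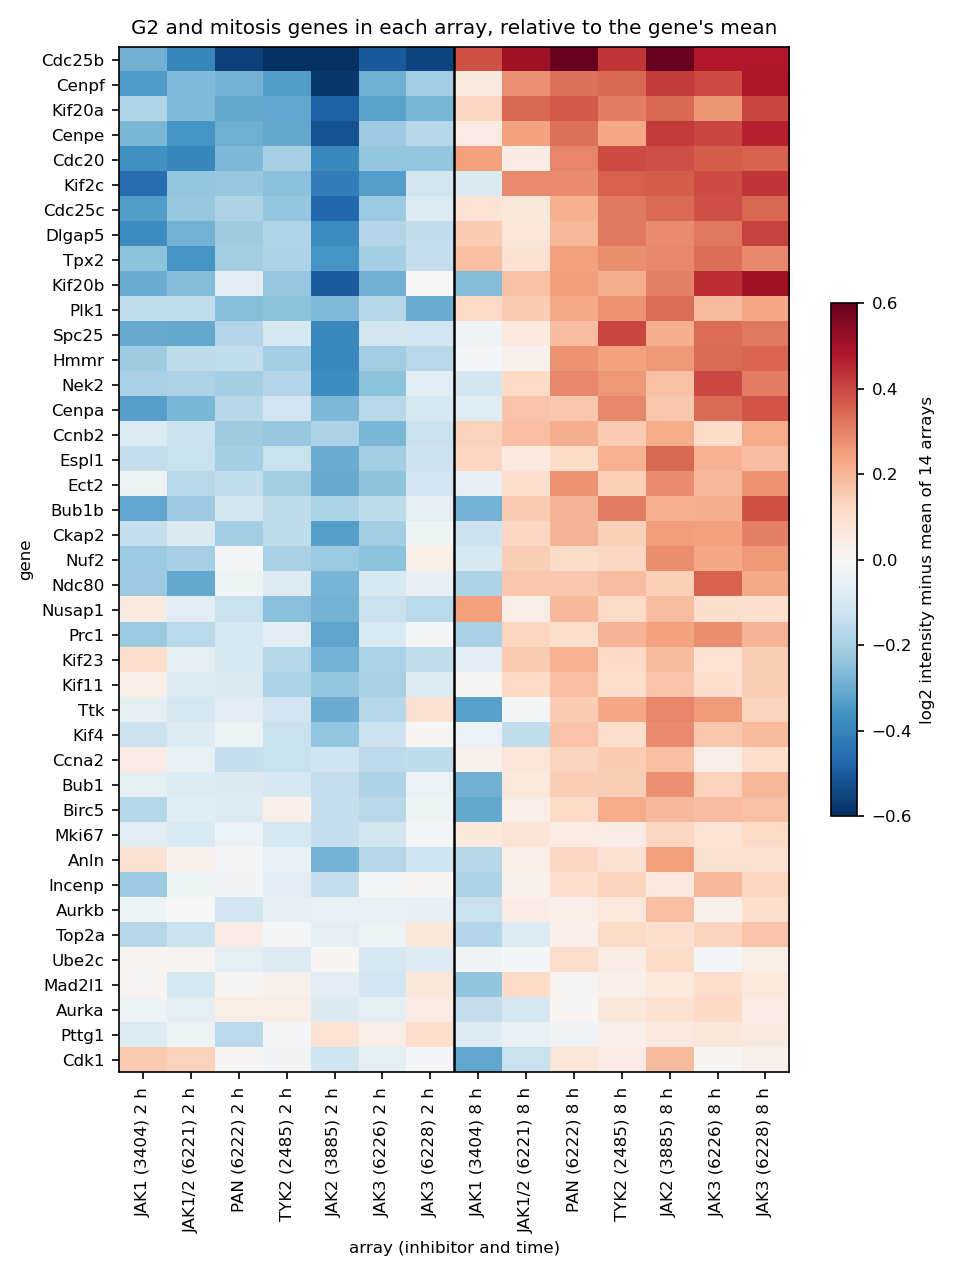
Log2 intensity of each gene in each of the 14 arrays, minus the gene's mean (colour, red above and blue below, with values beyond 0.6 shown at the end of the scale); genes are ordered by their mean change and a line parts the 2 h from the 8 h arrays. The 2 h side is mostly blue and the 8 h side mostly red, the JAK2 column is among the darkest blue at 2 h, and the JAK1 column at 8 h is pale or blue for many genes.

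Over the 14 arrays the members followed each other. The median Pearson r of a member with the mean of the other 40 was 0.91, and 35 of 41 were above 0.7, with Cdk1 (0.23) and Pttg1 (0.26) lowest. With each time centred on its own mean, so that only differences between arrays of the same time count, the median r was 0.76 and 26 members were above 0.7. The highest were Ttk (0.95), Cenpf (0.94) and Ckap2 (0.93), and the lowest was Nusap1 (-0.03). Cdk1 (0.80) and Aurka (0.88) had much higher r within the times than over all arrays. These are descriptions: the arrays of an inhibitor share their treatment, and all share the scaling of their array. The same r was not computed for other genes, so whether the members followed each other more closely than other genes was not tested.

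Other cell-cycle genes did not all move the same way. Of 49 measured genes of G1 and S phase, 36 were lower at 8 h and 1 was higher, with a median of -0.25. Among them Cdk6, a kinase that starts G1, changed by -1.39 (SE 0.06), Cdc25a, a CDK2 phosphatase, by -0.51 (SE 0.05), and the replication-origin genes Orc1 and Mcm2 by -0.91 (SE 0.09) and -0.43 (SE 0.04). Of 62 measured further mitosis genes, which hold condensins, more kinesins and centrosome proteins and are not among the 42, 32 were higher and 5 lower, with a median of 0.17. Depdc1b rose by 1.03 (SE 0.07), Pimreg by 0.85 (SE 0.06), the kinesin gene Kif14 by 0.67 (SE 0.06) and the condensin gene Smc4 by 0.45 (SE 0.04). Of 23 regulators of cell-cycle transcription, 13 were lower and 3 higher: E2f3 changed by -0.99 (SE 0.09) and E2f1 by -0.58 (SE 0.07), whereas Rbl2, the p130 subunit of DREAM, rose by 0.76 (SE 0.06) and Lin37, a MuvB subunit, by 0.56 (SE 0.05). Of 14 measured brakes and checkpoint genes, 5 were higher and 4 lower, with Cdkn2c (0.79, SE 0.07) and Btg2 (0.66, SE 0.06) up and Gadd45b (-1.57, SE 0.07) and Chek1 (-0.57, SE 0.07) down. Of 15 genes of APC/C subunits and partners, 3 were higher (Fzr1 by 0.30, Anapc11 by 0.23 and Anapc13 by 0.20) and 2 lower, among them Cdc16 at -0.33 (SE 0.07), which are shares no higher than the 21.3% and 28% over all genes.

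T cell markers were bright, with mean log2 intensities of 11.82 for Cd4 and 12.37 for Cd3e over the 14 arrays. All B cell and CD8 T cell markers measured also passed the filter, such as Cd79b at 9.57, Cd79a at 8.04, Cd8b1 at 8.99 and Cd8a at 6.81. Marker genes also moved with time. The summed linear intensity of 8 T cell markers was 25157 to 27593 at 2 h and 30602 to 32202 at 8 h. Limma called 6 of the 8 higher, beside 21.3% of all genes. The sum over 31 markers of other blood cells was 3576 to 3935 at 2 h and 4186 to 4920 at 8 h. Of these, 15 passed the filter, 8 of them higher and 1 lower at 8 h, beside 21.3% and 28% of all genes. The B cell gene Ms4a1 went from 8.18 to 8.96, while all 4 natural killer cell markers stayed under the filter. The part of other cells in the rise of the mitotic genes was not tested.

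The size of the rise varied between inhibitors. The median change of the 41 members was 0.04 with JAK1, 0.22 with JAK1/2, 0.31 with PAN, 0.34 with TYK2, 0.52 with JAK2, 0.39 with IFN.6226 and 0.29 with IFN.6228. The number of members higher at 8 h was 27 with JAK1, 36 with JAK1/2, 39 with PAN, 41 with TYK2, 40 with JAK2, 41 with IFN.6226 and 39 with IFN.6228. Of the 11851 genes tested, 4790 were higher at 8 h with JAK1, 5492 with JAK1/2, 6092 with PAN and 6203 with TYK2. The numbers were 6717 with JAK2, 5580 with IFN.6226 and 5974 with IFN.6228. With JAK1 the 14 members that were lower included Ttk (-0.26), Anln (-0.26), Mad2l1 (-0.25), Bub1 (-0.23) and Kif23 (-0.17). With JAK2 the 1 lower member was Pttg1 (-0.02). The median change of all genes also differed, from -0.10 with JAK1 to 0.05 with JAK2. After cyclic loess, which evens out such shifts between arrays, the member medians drew together to 0.27 with JAK1, 0.34 with JAK1/2, 0.33 with PAN, 0.39 with TYK2, 0.41 with JAK2, 0.40 with IFN.6226 and 0.35 with IFN.6228. After median centring the JAK1 median was -0.01, against -0.15 for all genes. Its sign therefore turned on the scaling, while it lay above the median of all genes both as deposited and after centring. G1 and S phase genes kept a negative median with all 7 inhibitors, from -0.42 with JAK1 to -0.04 with JAK2.

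**Figure D3:**
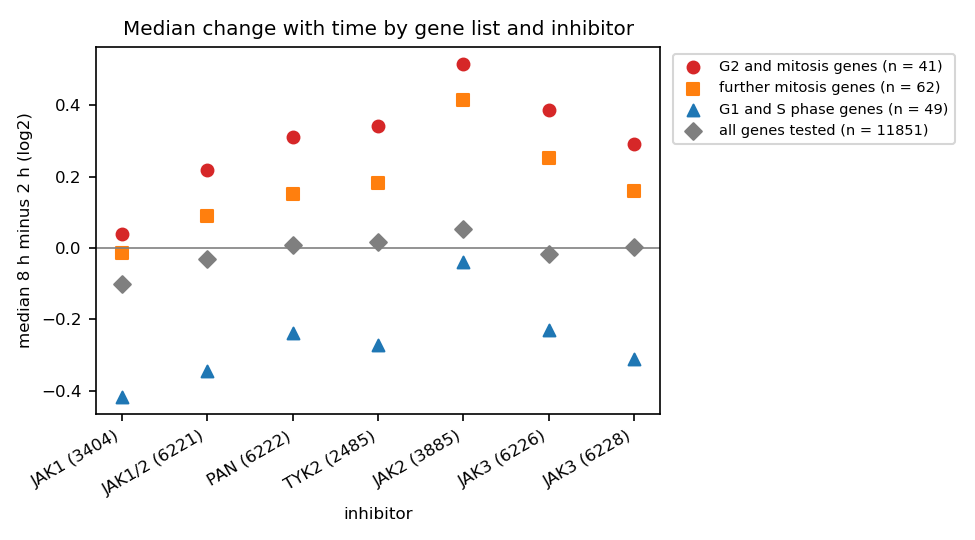
Median change from 2 h to 8 h (log2, vertical axis) of the 41 genes, of 62 further mitosis genes, of 49 genes of G1 and S phase and of all 11851 genes tested, for each inhibitor as deposited. The members lie above all genes and the G1 and S phase genes below them with every inhibitor, and each list is lowest with JAK1 and highest with JAK2.

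Over both times, few members differed between inhibitors. Against the mean of the other 6, limma called 4 members lower with JAK1, which is 9.76% of the 41 beside 6.73% of all genes, and 0 higher beside 0.937%. These were Bub1b (-0.35, SE 0.08, adjusted p = 0.0203), Kif2c (-0.32, SE 0.08, adjusted p = 0.0331), Cenpa (-0.23, SE 0.06, adjusted p = 0.0375) and Top2a (-0.20, SE 0.05, adjusted p = 0.0372). A further 9 members, 8 of them lower, had an unadjusted p under 0.05. The count of 4 became 0 without the 8 h array of JAK1 or without IFN.6228, 1 without IFN.6226, PAN or TYK2, and 8 without JAK2. The shares of all genes called under these alternatives are not given here, so these moves cannot be set against them. With each of the other 6 inhibitors limma called 0 members, beside 0.0759% of all genes higher with JAK2, 0.00844% higher with JAK1/2 and 0% otherwise. The members with an unadjusted p under 0.05 numbered 3 with JAK1/2 (all lower), 5 with IFN.6228 (all higher), 1 with TYK2 and 0 with PAN, JAK2 and IFN.6226. Shares of all genes at that unadjusted level are not given here. None of the unadjusted counts, for inhibitors or for pairs, can therefore be set against them. All 21 pairs of inhibitors were also compared in the same fit, with p adjusted over genes within each pair. In 20 pairs limma called 0 members, with 0 to 10 at an unadjusted p under 0.05. Of all genes, those lower with JAK1 were 2.02% against JAK2, 2.68% against IFN.6226, 0.717% against PAN and 2.06% against TYK2, and those higher were 0.0422%, 0.27%, 0.00844% and 0.506% in that order. Those higher with JAK1/2 were 0.371% against JAK1 and 0.00844% against IFN.6226. JAK2 against the JAK3 inhibitors had 0.0169% higher in either pair and 0.00844% lower than IFN.6228, and all remaining shares were 0%. JAK1 minus IFN.6228 had 4 members lower, again Bub1b (-0.46, SE 0.10), Kif2c (-0.43, SE 0.11), Cenpa (-0.34, SE 0.08) and Top2a (-0.29, SE 0.07), beside 5.38% of all genes. In that pair the member median was -0.18, and that of 9 interferon-stimulated genes was -2.44 with 9 of 9 lower.

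The labels name JAK1 or TYK2, the kinases of the IFNa receptor, in 4 inhibitors if PAN is read to include them, and JAK2 or JAK3 alone in 3. The comparison of these classes, with the inhibitor as the unit, asks whether the mitotic genes depend on which kinase is named. Limma called 0 members at 2 h, at 8 h, for the mean of the times and for the change with time, and the members with an unadjusted p under 0.05 numbered 4, 2, 1 and 4. Of all genes, 0.692% were called lower at 2 h, 0.101% higher for the change with time and 0% otherwise. The lowest adjusted p in these comparisons lay between 0.307 and 0.479. Shares of all genes at an unadjusted p under 0.05 are not given here, so the counts at that level cannot be set against them. At 8 h the difference of the first class from the second was negative in 40 of 41 members, with a median of -0.13 against -0.08 for all genes. In 10 members, 24.4%, all 4 arrays of the first class lay below all 3 of the second, as in 13.6% of all genes, and in 0 members above, as in 5.56%. Those below were Cdc25c, Pttg1, Cenpe, Cenpf, Nuf2, Kif2c, Tpx2, Ckap2, Kif20b and Mki67. Kif20b, for example, measured 8.59 with JAK1, 9.02 with JAK1/2, 9.10 with PAN and 9.07 with TYK2 against 9.15 with JAK2, 9.29 with IFN.6226 and 9.35 with IFN.6228. That is 8.94 ± 0.24 (SD, n = 4) against 9.26 ± 0.10 (SD, n = 3), a difference of -0.32 (SE 0.13, limma adjusted p = 0.307). The count moved with the scaling and the inhibitors used: it was 1 after cyclic loess (2.44%, beside 7.09% of all genes, median -0.03) and 1 after quantile normalization (beside 5.52%, median -0.04), but 21 after median centring (51.2% beside 21.5%, median -0.19). It was 10 without JAK1 (24.4% beside 15.2%, median -0.08) and 15 without JAK2 (36.6% beside 17.6%, median -0.14).

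At 2 h only Pttg1 (lower, beside 3.13% of all genes) and Anln (higher, beside 1.88%) were separate between the classes, with a member median of 0.03. Without JAK2 the median was -0.03, with 4 members lower (9.76%, beside 9.55% of all genes) and 2 higher (beside 5.75%), so its direction rested on that inhibitor. For the mean of the times 1 member was separate and lower, beside 8.22% of all genes, and 0 were higher, beside 3.92%. Without JAK2, 13 were separate and lower (31.7%, beside 17% of all genes) and 2 higher (beside 10.8%). The change with time was smaller in the JAK1 or TYK2 class for 40 of 41 members, with a median difference of -0.16 against -0.09 for all genes. The median was -0.06 after cyclic loess (35 members negative) and -0.07 after quantile normalization (37 negative), against -0.01 for all genes under either. As deposited, the change was separate for Cenpf, Hmmr, Kif20b and Anln, 4 of 41 with the smaller change in the first class beside 5.87% of all genes, and 0 with the larger beside 3.14%. Kif20b changed by 0.31 ± 0.19 (SD, n = 4) in the first class and by 0.68 ± 0.15 (SD, n = 3) in the second. A p above the threshold does not show that the classes act alike, and with 4 inhibitors against 3 a small difference may go undetected.

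Several arrays stood apart from their time, and the sizes of change with single inhibitors and the calls for JAK1 depend on them. Most members that rose kept the call without the 2 h array of JAK2 or without the 8 h array of JAK1. The 2 h array of JAK2 was low for the mitotic genes. Set against the median of the other 6 arrays of 2 h, its members had a median difference of -0.14, against -0.04 for all genes and -0.05 for the genes of G1 and S phase. 37 of 41 members were below, as were 7460 of the 11851 genes tested. In 23 members this array was the lowest of the 7 (56.1%, against 28.6% of all genes). This array was singled out with results known, so these values are given without a test. Cenpf measured 8.80 there and 9.04 to 9.17 in the other 6 (median 9.09), a difference of -0.29 that is wider than the range of those 6. Anln measured 9.28 against 9.39 to 9.65 (median 9.54), Kif20b 8.35 against 8.55 to 8.85 (median 8.60) and Cdc25c 7.66 against 7.80 to 8.05 (median 7.91). All of these lay under the lowest of the other arrays. Hmmr (9.30 against 9.47 to 9.54) and Kif20a (10.05 against 10.22 to 10.36) did too. By role, the JAK2 array was the lowest in 6 of 6 genes of the central spindle, 6 of 8 of the spindle motors and 5 of 8 of mitotic entry. It was the lowest in 3 of 6 of the kinetochore, 1 of 2 of chromosome structure and 0 of 3 of the passenger complex. For the checkpoint and for anaphase it was 1 of 4 each. The members above the median of the others were Pttg1 (0.10), Ube2c (0.07), Ccna2 (0.02) and Aurkb (0.01).

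The lower level of the members in that array remained under other scalings. Their median difference was -0.11 after quantile normalization with 20 members lowest (48.8%, against 19.8% of all genes). It was -0.10 after cyclic loess with 19 lowest (46.3% against 20.2%), where all genes and G1 and S phase genes had medians of -0.01. After median centring it was -0.19 with 33 lowest (80.5% against 43.1%). The upper quartile of intensity over all probe sets was 455 in that array and 469 to 496 in the other 2 h arrays. Its marker sums, 26030 for T cells and 3689 for other cells, lay inside the ranges of the 2 h arrays. At 8 h the JAK2 array had an upper quartile of 497, and 14 members were the highest of the 7 (34.1%, against 42.9% of all genes). Without the JAK2 array of 2 h, 1 of the 32 members that rose, Bub1, no longer passed.

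The opposite 2 h array was that of IFN.6228, where 23 members were the highest of the 7 (56.1%, against 25.5% of all genes), with a median difference of 0.09. After quantile normalization 7 members were the highest there (17.1%, against 15.2% of all genes), and after cyclic loess 9 (22% against 17.2%) with a median difference of 0.04. After median centring 26 were the highest (63.4% against 37.4%), with a median difference of 0.13. At 8 h the JAK1 array was low: 40 of 41 members were below the median of the other 6, as were 7771 of the 11851 genes tested. In 32 members it was the lowest (78%, against 45.3% of all genes). The median difference was -0.27, against -0.12 for all genes and -0.26 for the genes of G1 and S phase. Kif20b (8.59 against 9.02 to 9.35), Ttk (8.55 against 8.87 to 9.17) and Bub1b (9.90 against 10.33 to 10.56) lay farthest below. By role, this array was the lowest in 4 of 4 checkpoint genes, 6 of 6 of the kinetochore, 3 of 3 of the passenger complex, 6 of 6 of the central spindle, 6 of 8 of mitotic entry, 4 of 8 of the spindle motors, 2 of 4 of anaphase and 1 of 2 of chromosome structure. The upper quartile of intensity was 398 there, and 427 to 497 in the other 8 h arrays. After cyclic loess the member median was -0.07, with 18 lowest (43.9%, against 30.6% of all genes) and a median of -0.09 for G1 and S phase genes. The part of array quality or of cell number in either array was not tested.

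**Figure D4:**
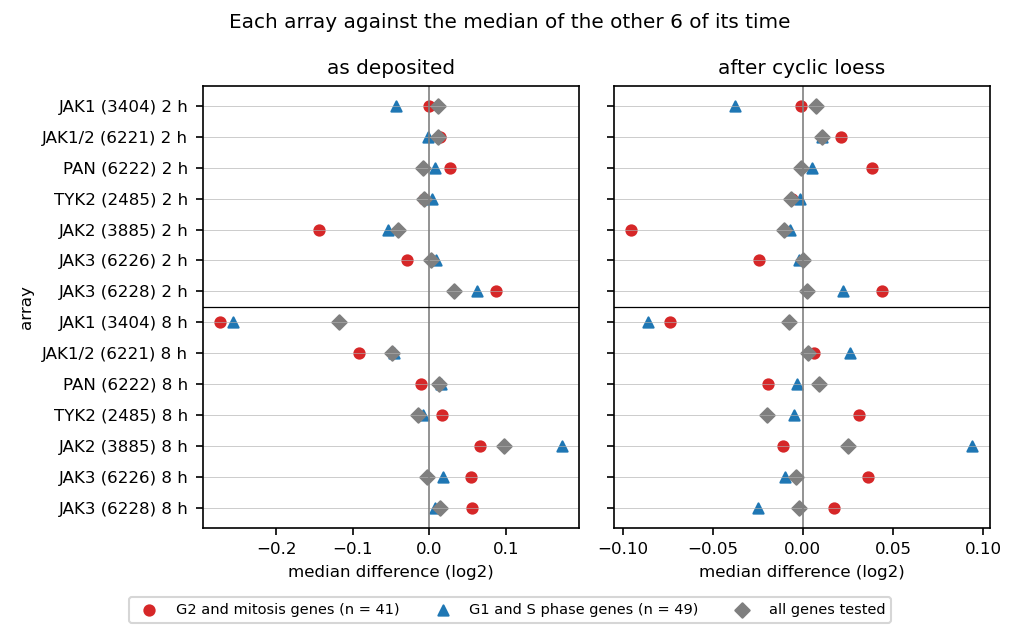
Median difference of each array from the median of the other 6 arrays of its time (log2, horizontal axis), as deposited on the left and after cyclic loess on the right with its own axis scale, for the 41 genes, 49 genes of G1 and S phase and all genes tested. At 2 h the JAK2 array has the lowest member value, -0.14 and -0.10, apart from the other lists, and at 8 h the JAK1 array is low for members and G1 and S phase genes alike.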

How the data were processed

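The 14 RNA samples were each run on 1 Affymetrix Mouse Gene 1.0 ST array. The deposited intensity values, 1 per probe set and array, were made with Affymetrix Power Tools and RMA per the submitters' processing notes, which give no versions; the arrays normalized together are not given in the sources used here. The values were read as linear from their range and put on the log2 scale. Of 24922 probe sets, 21425 had 1 gene symbol and were used, 1399 had several and 2098 none. A RefSeq table (GRCm38.p6) listed 21347 of the Entrez IDs, with 0 symbols to update. Genes whose brightest probe set averaged under the 40th percentile (log2 6.27) were not tested. An array has no read depth, and the number of arrays limits the precision.

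limma 3.58.1 in R 4.3.3 (statmod 1.5.0) fitted inhibitor plus time with eBayes and a variance trend (6 residual degrees of freedom), and the classes on 1 value per inhibitor (5 residual degrees of freedom). Fits were tested on simulated data. Tables and plots used Python 3.11.15, numpy 2.4.6, pandas 2.3.3 and matplotlib 3.10.9. The alternatives were other normalizations, filters, moderation, an offset of 50, the mean of probe sets, other pairings and arrays left out. The members and lists were chosen with earlier results of these data known. Any member may be named; every array is given for the member of largest mean intensity of each role and for those of largest and smallest change with time, and other lists name at most 4 genes by moderated t. The 10 members separate between the classes at 8 h and those lowest in the JAK1 array of 8 h were named after their values were seen.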

Additional observations from a re-analysis of the deposited data

Results flagged for a closer look

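For each of the 41 members and the member mean of each time, the highest and the lowest of the 7 arrays were checked for a gap to the next array that is large against the whole range (Dixon's ratio). Of the 84 groups of 7 arrays examined, 12 passed the 95% critical value, where chance gives about 1 in 20 of independent groups. These groups are not independent, since the members share arrays and correlate across them, and 9 of the 12 rest on the JAK1 array of 8 h alone. The JAK2 array of 2 h had been singled out with results known, so its ratios are a description only: it stood low for Cenpf (ratio 0.6399) and Hmmr (0.7096). At 8 h the JAK1 array stood low for the checkpoint genes Bub1 (0.6309), Bub1b (0.6561) and Mad2l1 (0.7258). It also stood low for Ndc80 of the kinetochore (0.6051), Birc5 of the passenger complex (0.6546), the spindle genes Kif2c (0.7192) and Ckap2 (0.5814), and Kif20b (0.5699) and Prc1 (0.6337) of the central spindle. The JAK1/2 array stood low at 8 h for Cdc20 (0.5749).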

How the results depend on the processing

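The number of members higher at 8 h was 28 to 38 over 13 other settings and 29 to 37 with each inhibitor left out in turn, and 28 of the 32 passed in every one of these 20 alternatives. The shares of all genes higher at 8 h under these alternatives are not given here. Birc5, Bub1, Incenp and Kif4 lost the call in some, and Anln, Aurka, Aurkb, Top2a, Ttk and Ube2c gained it in some. Among members that did not pass, the change with time turned to -0.0085 for Aurka and -0.0162 for Pttg1 after median centring, to -0.0001 for Pttg1 without PAN, and for Cdk1 to 0.0138 after cyclic loess, 0.0108 without JAK1/2 and 0.0434 without JAK1 or without its 8 h array. With each inhibitor left out, the change of Cdk1 ranged from -0.0861 to 0.0434 and that of Pttg1 from -0.0001 to 0.0306. The cause was not tested.

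The 4 members lower with JAK1 became 1 after median centring, 2 without the filter, 2 without the variance trend, 8 without the 2 h array of JAK2 and 0 without the 8 h array of JAK1. With each inhibitor left out they ranged from 0 (without IFN.6228) to 8 (without JAK2), with 1 without IFN.6226, PAN or TYK2. The shares of all genes called under the same settings are not given here. The median difference of the JAK2 array of 2 h was -0.189 after median centring and -0.0956 after cyclic loess, and -0.151 to -0.141 with another inhibitor left out. Class means and changes left out an inhibitor wherever 1 of its arrays was left out. No paired analysis by replicate number was possible because each group holds 1 array and so 1 number. The times were instead paired by inhibitor in the fit, and the inhibitor as a random block gave a consensus correlation of 0.0364.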
